A study of Mus musculus with 6 samples.

Results

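Low-cycling Lgr5-high cells are the cells of mouse duodenal organoids that carry the crypt-base stem cell receptor Lgr5 and few transcripts of mitosis. They were taken from 6 droplet single-cell RNA libraries by a rule on measured values: at least 1000 genes and under 20% mitochondrial (mt-) unique molecular identifiers (UMIs, 1 per captured RNA molecule), at least 2 Lgr5 UMIs, and at most 1 UMI of Mki67, Top2a, Ube2c and Birc5 together. The rule kept 3364 cells of the 87954 that met the limits on genes and mt- UMIs (3.82%), out of 123544 cell barcodes in the files. They numbered 418 and 825 in the WT -EIPA libraries of experiments 1 and 2, 368 and 522 in the WT +EIPA libraries, 608 in the CRISPR -Dox library and 623 in the CRISPR +Dox library.

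All organoids came from WT stocks started with 10-week-old adult mice, were grown in ENR medium and were taken at day 3. WT organoids were given DMSO vehicle (-EIPA, 2 libraries) or 5 µM EIPA, an amiloride-type inhibitor of sodium-proton exchange (+EIPA, 2 libraries). The CRISPR organoids were made from WT organoids by lentivirus, carried an all-in-one vector with doxycycline-inducible Cas9-EGFP and a guide to the first exon of the targeted gene, and were puromycin-selected clones without doxycycline (-Dox, 1 library) or with 2 µg/mL doxycycline (+Dox, 1 library). Live cells were sorted for every library, and the +Dox cells were also sorted for GFP, so sorting and doxycycline cannot be told apart from editing. Mouse strain is not given in the sources used here. With 1 library per CRISPR group, the Dox values have no replicate check, and no test was made on them.

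Lgr5 (chromosome 10, 115450311 to 115587780, minus strand, GRCm38) encodes the receptor for R-spondins, which keeps WNT receptors at the surface of crypt-base stem cells. These cells lie between Paneth cells, which supply WNT ligands and Notch ligands, and their daughters become absorptive enterocytes or secretory cells. Olfm4, Smoc2, Gkn3 and Clca3b are other genes known from crypt-base stem cells.

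The low-cycling Lgr5-high cells had median depths of 9524.5, 9652, 9517.5 and 10897 UMIs in the WT libraries (-EIPA 1 and 2, +EIPA 1 and 2), 9759.5 in -Dox and 13362 in +Dox. The +Dox library was thus the deepest per cell. Summed UMIs over these cells ranged from 3735954 to 9644205 per library. Kept barcodes shared by any pair of libraries came to between 0.273% and 0.563% of the smaller library, and at most 1 of them was a low-cycling Lgr5-high cell in both. Markers of non-epithelial cells (10 genes, such as Ptprc, Pecam1 and Col1a1) summed to between 1.26 and 16.6 UMIs per 1000000 (CPM).

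Summed over the cells of a library, the stem cell markers fitted the label. Olfm4, a secreted glycoprotein of crypt-base cells, stood at 4149 and 6016 CPM in -EIPA, 2692 and 3391 in +EIPA, 5265 in -Dox and 5165 in +Dox. In Lgr5-high cells with 2 or more UMIs of the 4 cycle genes it was 2340, 3082, 2413, 2320, 3340 and 3561 CPM in the same order. Low-cycling cells without an Lgr5 UMI had 286, 741, 291, 241, 452 and 243 CPM. Olfm4 was therefore highest in the low-cycling Lgr5-high cells in each of the 6 libraries. Gkn3 had the same order, at 92.1, 192, 50.6, 117, 41.3 and 58.4 CPM against 45.7, 85.4, 38.9, 76.7, 23.1 and 29.7 in cycling Lgr5-high cells. Smoc2, an extracellular matrix protein, was at 159 to 249.4 CPM in low-cycling Lgr5-high cells, 151 to 200 in cycling ones and 34.6 to 91.3 in those without Lgr5. Clca3b was at 608 to 983 CPM, against 577 to 755 in cycling Lgr5-high cells. The +EIPA library of experiment 1 was the exception for Clca3b, with 608 CPM in low-cycling and 620 in cycling Lgr5-high cells. Since Lgr5 chose the cells, these levels are a description and carry no test. The limit of 2 Lgr5 UMIs was the same for both Lgr5-high classes, though cycling cells were deeper. Their median depths were 15399 to 24288 UMIs over the 6 libraries, against 9517.5 to 13362 in low-cycling Lgr5-high cells. How much of the difference in Olfm4 and Gkn3 came from this was not tested.

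**Figure D1:**
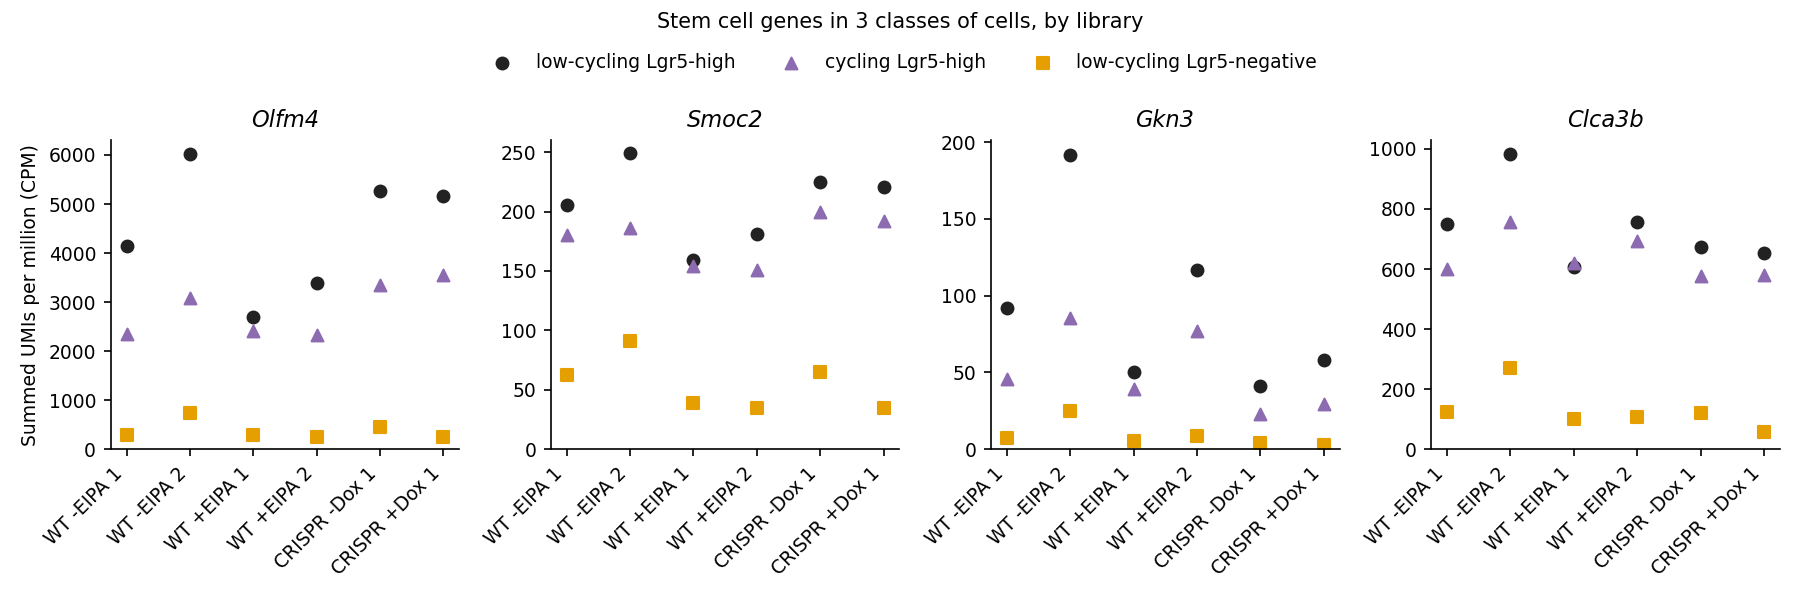
Level of 4 crypt-base stem cell genes (vertical axis, CPM over all cells of a kind) in each of 6 libraries (horizontal axis). Black circles are low-cycling Lgr5-high cells, purple triangles cycling Lgr5-high cells and orange squares low-cycling cells without Lgr5. Olfm4 and Gkn3 were highest in the low-cycling Lgr5-high cells of every library. The Lgr5 limit was the same for the cycling cells, which were deeper.

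Between 44.3% and 57.6% of the cells carried exactly 2 Lgr5 UMIs, and the most in any cell was 15. Olfm4 followed the Lgr5 count among low-cycling cells. In -EIPA 1 it went from 286 CPM at 0 Lgr5 UMIs to 1584 at 1, 3181 at 2, 4581 at 3 and 5651 at 4 or more. In +EIPA 2 the steps were 241, 1537, 2866, 3943 and 3924 CPM, so the upper steps were level there. Cells just inside the Lgr5 limit (2 UMIs) had 2110 to 4898 CPM of Olfm4 over the 6 libraries, and cells just outside it (1 UMI) had 1537 to 3066. In +EIPA 1 the inside and outside values were the closest, 2110 and 1684 CPM.

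The rule limited mitotic transcripts, but many of the cells held transcripts of DNA replication. After each cell was thinned to 5000 UMIs, 3 or more UMIs of 21 S-phase genes (such as Mcm6 and Pcna) were found in 57.2%, 51.9%, 59.8%, 50.8%, 64.2% and 55.2% of low-cycling Lgr5-high cells (-EIPA 1 and 2, +EIPA 1 and 2, -Dox, +Dox). The shares were 79.2% to 85.8% in cycling Lgr5-high cells and 13.8% to 28.2% in low-cycling cells without Lgr5. Without thinning they were 70.1% to 82.8%, 96.0% to 98.0% and 33.6% to 52.3%. Pcna, the replication clamp, was at 95.9 to 124 CPM. Cells just outside the cycle limit, with 2 UMIs of the 4 cycle genes, had 110 to 154 CPM of Pcna, and those just inside, with 1 UMI, had 104 to 143. Between 44.0% and 47.4% of the cells had none of the 4 cycle genes' UMIs. The group thus holds cells with few mitotic transcripts, many of which carried S-phase transcripts, and is called low-cycling only by its rule.

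A share of the cells went against the stem cell label. Of 12 genes of other lineages, such as Muc2 and Chgb, 2 or more UMIs were found in 42.3% and 49.5% of the cells in -EIPA. The shares were 58.4% and 67.2% in +EIPA, 30.3% in -Dox and 80.6% in +Dox. They were taken without thinning, and median depth was 9759.5 UMIs in -Dox and 13362 in +Dox. The share of a cell's UMIs in 41 Paneth, goblet, enteroendocrine and tuft markers had medians of 0.203%, 0.369%, 0.245%, 0.513%, 0.209% and 0.491% in the 6 libraries. Its 95th percentile was between 16.5% and 37.1%, so a minority of cells were full of secretory transcripts. Cells over 1% are called secretory-rich here and the others secretory-poor. This limit was set after the values were seen. Secretory-rich cells were 23.4% and 18.3% of the low-cycling Lgr5-high cells in -EIPA, 34.5% and 34.5% in +EIPA, 15.8% in -Dox and 32.6% in +Dox. Secretory RNA that reaches a droplet from other cells counts toward the 1% and toward the UMIs of the 12 genes too. Its part in all of these shares was not tested.

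The +EIPA shares lay above the -EIPA shares, with a ratio of 1.65 (1.47 in experiment 1 and 1.88 in experiment 2). The two-sided exact permutation p was 0.333, the smallest that 2 against 2 libraries allow. In cycling Lgr5-high cells the secretory-rich shares were 7.62%, 14.4%, 13.4%, 20.1%, 8.27% and 24.7%.

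Lyz1, the Paneth lysozyme, was at 7986 to 17559 CPM in the secretory-rich cells and 76.0 to 354 CPM in the secretory-poor ones. Atoh1, the transcription factor that starts secretory fate, had a UMI in 20.4% to 33.1% of secretory-rich and 0.48% to 2.24% of secretory-poor cells after thinning, against 0.62% to 1.55% of cells with enterocyte markers. Olfm4 was lower in the secretory-rich cells of each library, at 833 to 2998 CPM against 3579 to 6769, while Lgr5 was at 197 to 281 against 229 to 304 CPM. Median UMIs did not set them apart, at 8469 to 13469 in secretory-rich and 9514 to 13352 in secretory-poor cells. Of the secretory-rich cells 7.09% to 16.6% were among the 10% of all cells with the highest doublet scores, as were 3.12% to 6.64% of the secretory-poor ones. The part of doublets in the secretory-rich cells was not tested beyond these shares. The main counts below are therefore given for all low-cycling Lgr5-high cells and for the secretory-poor cells, 320, 674, 241, 342, 512 and 420 per library.

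**Figure D2:**
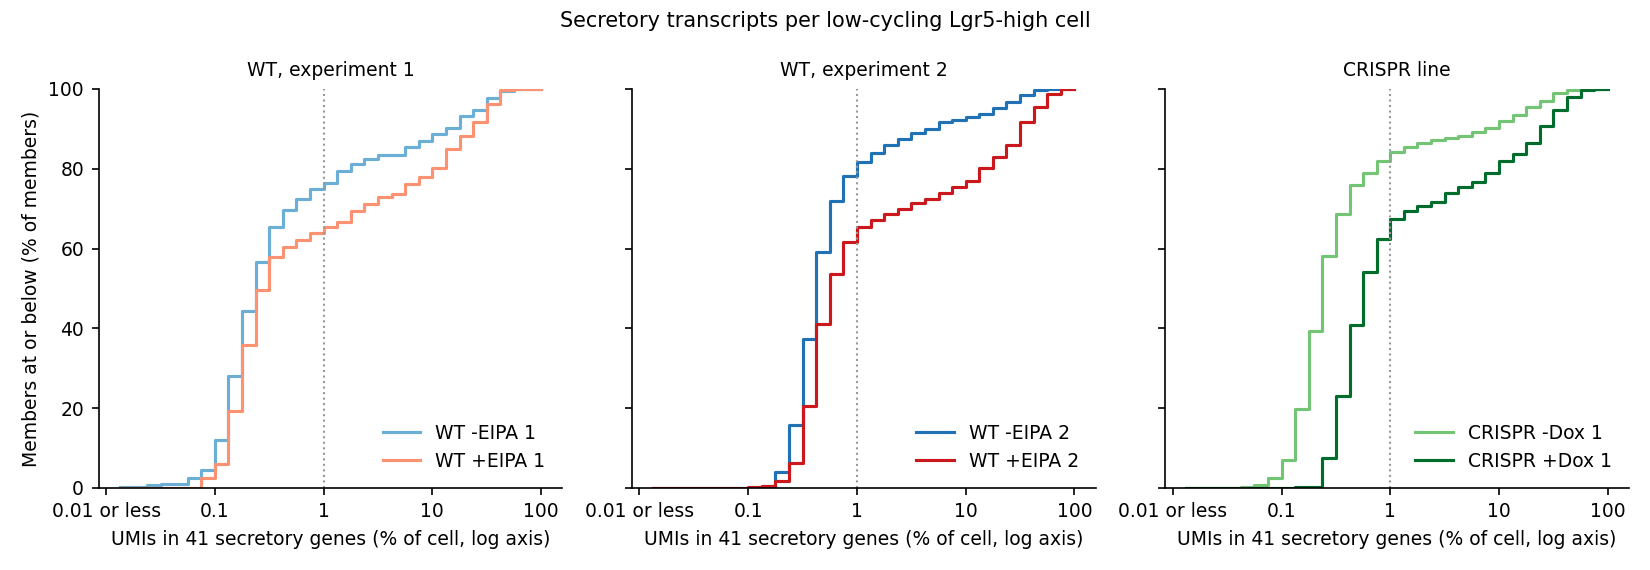
Cumulative share of low-cycling Lgr5-high cells (vertical axis, % of the cells in a library) by their share of UMIs in 41 secretory marker genes (horizontal axis, % of the cell's UMIs, log axis), with the 1% limit dotted. Above it lie 34.5% of cells in both +EIPA libraries against 23.4% and 18.3% in -EIPA, and 32.6% in +Dox against 15.8% in -Dox.

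Low-cycling Lgr5-high cells made up 3.32% (95% exact binomial interval 3.01 to 3.64) and 4.53% (4.23 to 4.84) of the cells in -EIPA, and 2.79% (2.51 to 3.08) and 3.66% (3.36 to 3.98) in +EIPA. The intervals cover counting error only. Within each experiment the +EIPA share was lower, with ratios of 0.841 and 0.808, but the groups overlapped, since +EIPA 2 lay above -EIPA 1. The ratio of the means was 0.822 (two-sided exact permutation p = 0.667), in a design of 2 against 2 libraries whose smallest possible p is 0.333, so this test could not pass a threshold of 0.05. After thinning each cell to 5000 UMIs the shares were 2.48% and 3.46% in -EIPA and 2.09% and 2.57% in +EIPA, a ratio of 0.786. Secretory-poor cells alone were 2.54% and 3.70% of the cells in -EIPA and 1.83% and 2.40% in +EIPA. Those groups did not overlap, with a ratio of 0.677 (0.720 and 0.648 within experiments, two-sided exact permutation p = 0.333). Secretory-rich cells went the other way, at 0.777% and 0.829% in -EIPA and 0.963% and 1.26% in +EIPA, a ratio of 1.38 (two-sided exact permutation p = 0.333). Of all Lgr5-high cells, the low-cycling share was 17.5% and 24.2% in -EIPA and 17.2% and 19.2% in +EIPA. After thinning it was 40.7% and 54.3% against 41.6% and 52.6%, a ratio of 0.992.

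In the CRISPR line the share was 3.45% (3.19 to 3.74) in -Dox and 5.16% (4.77 to 5.57) in +Dox, a ratio of 1.49. Over all cells kept, median depth was 11952 UMIs in -Dox and 17020 in +Dox. After thinning the shares were 2.70% and 3.05%, a ratio of 1.13, and for secretory-poor cells without thinning they were 2.91% and 3.48%, a ratio of 1.19.

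**Figure D3:**
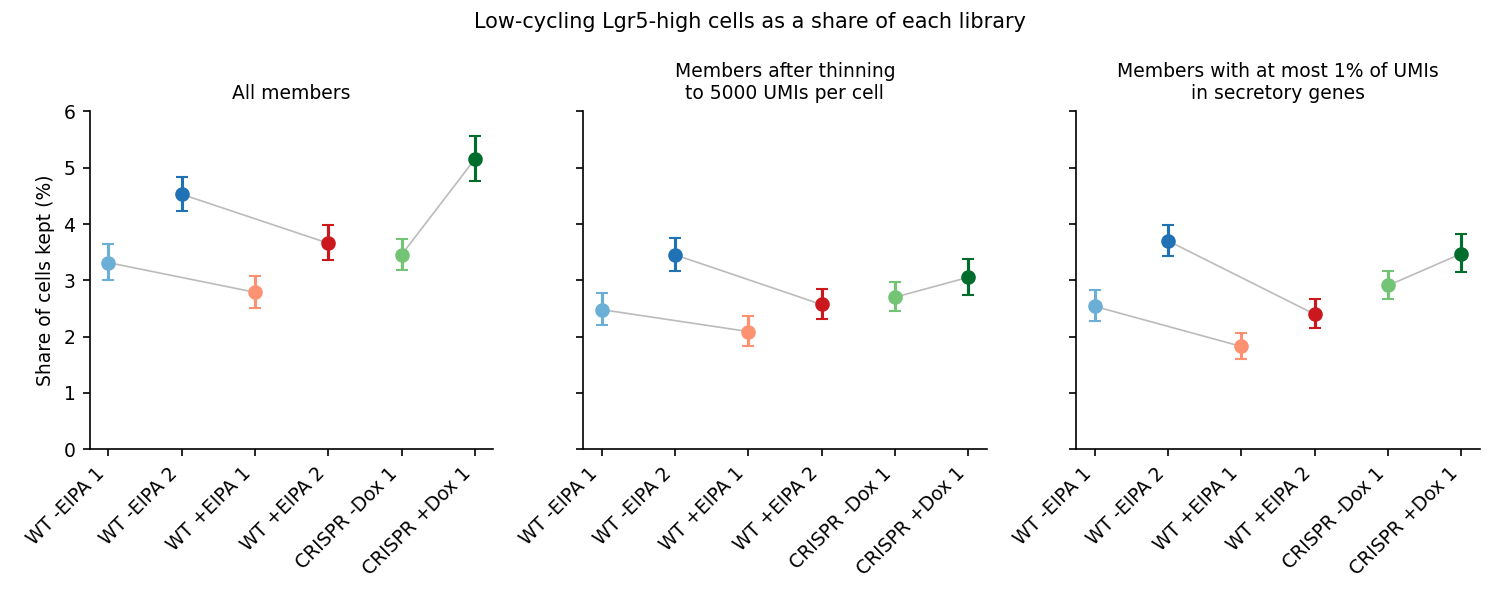
Low-cycling Lgr5-high cells as a share of the cells kept (vertical axis, %) in each of 6 libraries (horizontal axis), for all of them, after thinning each cell to 5000 UMIs, and for secretory-poor cells. Bars are 95% exact binomial intervals, for counting error only, and grey lines join libraries of 1 experiment. The +EIPA share is below its own -EIPA share in both experiments, and the Dox ratio of 1.49 is 1.13 after thinning.

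EIPA was compared on the counts of all low-cycling Lgr5-high cells in a WT library, added up, with edgeR's quasi-likelihood test and Benjamini-Hochberg adjustment over all genes tested. Of 10842 genes, 5 passed an adjusted p of 0.05, all higher with EIPA (0.0461% of genes tested), and 618 had an unadjusted p under 0.05. Scaling by library size in place of TMM (edgeR's trimmed mean of M-values) gave 7 higher and 3 lower, and DESeq2 called 48 genes, 42 higher and 6 lower. With the experiment as a block, 155 genes were higher (1.43%) and 34 lower (0.314%). That fit has 1 residual degree of freedom per gene, so its p-values lean on the spread shared across genes. In the secretory-poor cells 5 of 10237 genes passed (0.0488%), 4 higher and 1 lower. There the block called 244 genes higher (2.38%) and 96 lower (0.938%), and DESeq2 called 25.

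Of the 25 gene lists, the one with the lowest median was that of AP-1 and immediate early genes, transcription factors and feedback regulators that are switched on rapidly by growth factor and stress signals. All 15 tested genes of the list were lower with EIPA, with a median log2 fold change of -0.46 against -0.001 over all genes. None of the 15 passed edgeR's test in all cells, and 6 passed with the experiment as a block. In 12 of the 15 both +EIPA libraries lay below both -EIPA libraries, which 25.5% of all genes did. Among secretory-poor cells the median was -0.71, Fosb passed edgeR's test, and 13 of 15 passed with the block.

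Fosb, an AP-1 subunit, had 30.0 and 27.1 CPM in the secretory-poor cells of -EIPA, 3.56 and 4.48 in +EIPA, 39.9 in -Dox and 6.38 in +Dox. The control libraries were thus all at 27 CPM or more and the treated ones all under 7. Fosb fell by 2.72 ± 0.23 (SE) on the log2 scale with EIPA (edgeR adjusted p = 0.020, n = 2 libraries per group). Over all low-cycling Lgr5-high cells the log2 fold change was -2.20 ± 0.28 (edgeR adjusted p = 0.082, DESeq2 adjusted p = 2.3e-07), from 48.3 and 30.2 to 9.10 and 7.16 CPM.

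Fos had 378 and 436 CPM in -EIPA, 195 and 188 in +EIPA, 466 in -Dox and 183 in +Dox over all of the cells. Both treated groups lay under their controls. The log2 fold change with EIPA was -1.02 ± 0.12 (edgeR adjusted p = 0.077, 0.00033 with the experiment as a block, n = 2). Jun was at 431 and 556 CPM against 268 and 310 (log2 fold change -0.70 ± 0.16, edgeR adjusted p = 0.38). Atf3, a stress-induced repressor of the same family, was at 61.1 and 102 CPM against 26.0 and 10.0 (-2.20 ± 0.40, edgeR adjusted p = 0.22). The secretory-poor values of Fos, Jun and Atf3 were -1.17, -0.71 and -2.94 (edgeR adjusted p = 0.36, 0.76 and 0.090). Nr4a1, an orphan nuclear receptor, had 14.7 and 13.3 CPM against 7.23 and 5.25. Jund, Egr1 and Ier2, also among the abundant genes of the list, had log2 fold changes of -0.23, -0.22 and -0.22, and none of them passed with or without the block in all of the cells.

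Fos and Fosb are 2 of the 15 tested genes of the list, all of them lower with EIPA. The 250 bases before their RefSeq starts (GRCm38.p6) are shown in lower case, with each cAMP response element half-site (TGACG on either strand) in capitals. Windows of the other genes of the list are not shown. Fos is at chr12:85473640-85473889 on the plus strand and Fosb at chr7:19310046-19310295 on the minus strand, both written 5′ to 3′ along the gene.

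Fos: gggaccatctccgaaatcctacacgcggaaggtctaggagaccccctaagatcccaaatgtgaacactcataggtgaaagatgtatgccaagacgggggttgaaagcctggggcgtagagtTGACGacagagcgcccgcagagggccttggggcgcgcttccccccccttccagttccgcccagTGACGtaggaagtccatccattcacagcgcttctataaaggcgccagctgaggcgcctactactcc

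Fosb: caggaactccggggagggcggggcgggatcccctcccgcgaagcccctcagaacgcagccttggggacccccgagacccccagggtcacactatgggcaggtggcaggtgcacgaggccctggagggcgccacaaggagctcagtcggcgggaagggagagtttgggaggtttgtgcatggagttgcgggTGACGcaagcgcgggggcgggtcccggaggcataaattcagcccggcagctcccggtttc

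The half-site occurs 2 times in the Fos window and 1 time in the Fosb window. Of 32851 RefSeq windows of the same length, 5836 (17.8%) hold it. The match in these 2 chosen windows is a description of the letters, was not tested against that share and shows no binding.

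The other genes named for a lower level with EIPA did not pass edgeR's test. Hbegf, an EGF-family ligand, had 98.2 and 127.5 CPM in -EIPA and 40.95 and 45.2 in +EIPA (log2 fold change -1.32 ± 0.16, edgeR adjusted p = 0.082, 0.00018 with the block). Edn1, the endothelin precursor, had 96.8 and 159 against 42.0 and 55.1 CPM (-1.32 ± 0.26, edgeR adjusted p = 0.25). The WT groups did not overlap for either gene, as in 25.5% of all genes in that direction. Ccn1, a matricellular YAP target, was at 39.5 and 68.98 against 21.95 and 23.7 CPM (-1.19, edgeR adjusted p = 0.32), and Bmp3, a BMP-family protein, at 19.9 and 22.9 against 11.5 and 11.9 CPM (-0.80, edgeR adjusted p = 0.29). Slc27a2, a fatty acid transporter and acyl-CoA synthetase, and Tcim completed the 10 lower genes named by unadjusted p, with log2 fold changes of -0.93 and -0.74 (edgeR adjusted p = 0.18 and 0.26). Hbegf also stood at 106 CPM in -Dox and 52.4 in +Dox, and Tcim at 59.4 and 30.9, whereas Slc27a2 (18.1 and 19.4) and Bmp3 (21.0 and 20.1) were level there.

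Transcripts of the absorptive lineage were higher with EIPA in these cells. All 24 tested genes of the enterocyte list had a positive log2 fold change, with a median of 1.17, and in 20 of them both +EIPA libraries lay above both -EIPA libraries, as in 11.2% of all genes. None of the 24 passed edgeR's test in all cells, 16 passed with the block and 10 by DESeq2. The secretory-poor cells gave a median of 1.43, with 22 of 24 passing the block and Guca2a passing edgeR's test. Guca2a, the hormone guanylin, rose there from 13.3 and 11.8 CPM to 47.4 and 47.8 (log2 fold change 1.99 ± 0.16, edgeR adjusted p = 0.020, n = 2). It was at 30.3 CPM in -Dox and 102 in +Dox. Over all of the cells Guca2a was at 385 and 89.9 CPM against 453 and 377, groups that overlapped, and secretory-rich cells held 403 to 2644 CPM of it. Guca2b, uroguanylin, had 36.8 and 15.8 CPM against 200 and 163 in the secretory-poor cells (2.91 ± 0.34, edgeR adjusted p = 0.057).

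Apoa1, the apolipoprotein of enterocyte lipid export, had 160 and 83.6 CPM in -EIPA, 510 and 443 in +EIPA, 80.9 in -Dox and 373 in +Dox. The log2 fold change with EIPA was 2.04 ± 0.28 (edgeR adjusted p = 0.10, 0.00026 with the block). Between 56.8% and 75.7% of its UMIs in a WT library came from 10 cells. The secretory-poor log2 fold change was also 2.04 (edgeR adjusted p = 0.52). Fabp1, the fatty acid binding protein, was at 851 and 616 CPM against 1708 and 1204 (1.05 ± 0.20, edgeR adjusted p = 0.24).

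RNA of enterocytes can also reach droplets of other cells as free RNA. After thinning, Apoa1 had a UMI in 19.0% and 13.1% of secretory-poor cells in -EIPA and 36.0% and 40.2% in +EIPA. In the secretory-rich cells, marked by genes of another lineage, the shares were 17.6% and 13.2% against 47.8% and 53.6%, at median depths of 8469 to 10496 UMIs beside 9514 to 10954. Cells with enterocyte markers had 78.3% and 70.0% against 89.7% and 90.4%. The secretory-poor share was slightly above the secretory-rich share in -EIPA 1 and below it in the other WT libraries. The median share of UMIs in the whole enterocyte list was 0.117% and 0.095% in the secretory-poor cells of -EIPA and 0.142% and 0.126% in +EIPA. In enterocyte-marked cells it was 3.49% and 2.65% against 5.69% and 5.98%. How much of the enterocyte list's higher level in the Lgr5-high cells came from free RNA was not tested.

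Cyp3a13, a cytochrome P450 of drug and steroid oxidation, was the gene that passed in both sets of cells together with Gm3776, a predicted glutathione S-transferase gene that can share reads with its paralogs. Cyp3a13 rose from 16.1 and 11.9 CPM to 60.8 and 48.4 with EIPA (log2 fold change 2.05 ± 0.18, edgeR adjusted p = 0.028). In the secretory-poor cells it rose by 2.21 ± 0.23 (edgeR adjusted p = 0.047), and it stood at 25.5 CPM in -Dox and 71.6 in +Dox. Enterocyte-marked cells held 220 to 559 CPM of it in the WT libraries, also more with EIPA. Gm3776 rose by 1.77 in all cells and 1.89 in the secretory-poor cells (edgeR adjusted p = 0.012 and 0.047). Each of these 2 genes no longer passed under 6 of 17 alternatives over all cells, among them no cycle UMIs allowed, cells chosen after thinning, cells without other lineages' UMIs and Olfm4-positive cells only. Under those 6 the log2 fold change was 1.41 to 2.17 for Cyp3a13 (edgeR adjusted p = 0.061 to 1.00) and 1.25 to 2.02 for Gm3776 (0.060 to 1.00). Mt4, a metallothionein, rose in the secretory-poor cells from 4.63 and 7.37 CPM to 32.03 and 28.1 (2.28 ± 0.23, edgeR adjusted p = 0.045), against 2.06 in all cells (edgeR adjusted p = 0.082). Unlike Cyp3a13, Mt4 was not higher with Dox, at 4.26 and 2.28 CPM.

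Next by unadjusted p came Muc3, a membrane mucin (7.34 and 6.49 against 21.4 and 20.1 CPM), Aldh1a1, a retinal dehydrogenase (33.1 and 28.7 against 63.4 and 63.4 CPM), and Tm4sf4 (12.1 and 19.7 against 50.6 and 42.7 CPM). Their log2 fold changes were 1.67, 1.12 and 1.57 (edgeR adjusted p = 0.063, 0.077 and 0.10). The groups of all 3 did not overlap in the secretory-poor cells either, which are part of the cells that picked these genes. Of all 10237 genes tested there, 1173 had +EIPA libraries both above the -EIPA libraries.

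The other genes that passed in all of the cells were Defa29 and AY761184, alpha-defensin genes, and Habp2, a hyaluronan-binding serine protease in the Paneth list. Defa29 (chromosome 8, 21325887 to 21327020, minus strand) rose from 23.2 and 25.0 CPM to 104 and 116 (2.26 ± 0.14, edgeR adjusted p = 0.010). Between 87.7% and 94.8% of its UMIs in a WT library sat in 10 cells, and the secretory-poor cells held 1.33 to 3.56 CPM. AY761184 rose by 1.32 and Habp2 by 1.45 (edgeR adjusted p = 0.028 and 0.041). Defa29, AY761184 and Habp2 no longer passed under 4 of 16, 8 of 17 and 7 of 16 alternatives. Where they no longer passed, the log2 fold change was 1.69 to 3.61 for Defa29, 0.38 to 1.64 for AY761184 and 1.14 to 1.38 for Habp2. The secretory-poor log2 fold changes of AY761184 and Habp2 were 0.33 and -0.08. Alpha-defensins are a family of near-identical genes that can share reads, so the level of a single member is uncertain. Samd5 behaved likewise, with 1.44 in all cells and 0.02 in secretory-poor cells.

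Of the whole Paneth list, all 12 tested genes were higher with EIPA in all cells (median log2 fold change 1.53), 1 passed edgeR's test and all 12 passed with the block. Lyz1 was at 2045 and 1708 CPM against 3450 and 4159 (1.09 ± 0.16, edgeR adjusted p = 0.12). Defa24 was at 13445 and 10068 against 22811 and 34620 CPM. All 9 goblet genes (median 1.10), 9 of 12 enteroendocrine genes (0.77) and all 6 tuft genes (1.26) were also higher, with none past edgeR's test and 3 of each list past the block. In the secretory-poor cells, which were chosen on these genes, the medians were 0.46, 0.13, 0.03 and 0.36. There 8 of 10 Paneth, 4 of 7 goblet, 5 of 9 enteroendocrine and 5 of 5 tuft genes were higher, none past edgeR's test. Past the block were 4 Paneth genes higher and 1 lower, 2 goblet genes higher, 1 enteroendocrine gene in each direction and 1 tuft gene higher. The choice of cells on these genes sets the smaller medians in part. The secretory-rich share was 1.65 times as large with EIPA, and its part in the higher levels was not tested.

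Crypt-base stem cell genes leaned the other way. Without Lgr5, 20 of 23 tested genes were lower with EIPA (median -0.18), none passed edgeR's test and 2 passed with the block, Olfm4 and Gkn3. Over all genes tested, 0.314% were lower past the block. In 8 of the 23 both +EIPA libraries lay below both -EIPA libraries, as in 25.5% of all genes. Olfm4 had a log2 fold change of -0.66 ± 0.21 (edgeR adjusted p = 0.65, 0.0015 with the block), and its WT groups did not overlap. In the secretory-poor cells it stood at 5140 and 6769 against 3579 and 4562 CPM (-0.50 ± 0.18). There 3 of 22 genes were lower past the block, beside 0.938% of all genes tested. Gkn3 went from 92.1 and 192 to 50.6 and 117 CPM, lower within each experiment but with overlapping groups. Smoc2 was at 205 and 249.4 against 159 and 181 CPM (-0.34 ± 0.15, edgeR adjusted p = 0.88), and Clca3b and Slc12a2, a sodium-potassium-chloride cotransporter, had log2 fold changes of -0.27 and -0.21. Lgr5 itself, which chose the cells, was at 288 and 296 against 264 and 242 CPM. Low-cycling cells with 2 Lgr5 UMIs had 203 and 207 CPM of Lgr5 in -EIPA and 203 and 176 in +EIPA. Exactly 2 Lgr5 UMIs were carried by 51.0% and 49.9% of the cells in -EIPA and 57.6% and 53.8% in +EIPA. The part of these differences in the levels of stem cell genes was not tested.

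In the WNT, Notch and BMP lists no gene passed edgeR's test. The WNT list had a median of -0.04, with 7 of 16 tested genes higher and 9 lower and none past the block. Among secretory-poor cells it had 5 of 15 higher and 10 lower (median -0.07), with 1 gene, the R-spondin receptor Lgr4, lower past the block (2.38% of all genes tested there were higher past the block and 0.938% lower). Axin2, the negative feedback target of WNT signalling, was at 122 and 135 against 105 and 128 CPM, and Ascl2, the WNT-driven stem cell transcription factor, at 44.3 and 60.0 against 48.5 and 46.2 CPM. Both overlapped between groups. The Notch list (13 tested) had a median of -0.01 and in the BMP list 6 genes were higher and 6 lower, neither with a gene past the block. For the secretory-poor cells Notch had 4 of 11 genes higher (median -0.04) and BMP 3 of 11 (median -0.13), again with none past the block. The list of 13 secretory fate regulators had 10 genes higher and 3 lower (median 0.13), with none past edgeR's test and 1, Sox4, lower past the block, beside 0.314% of all genes tested. With secretory-poor cells 3 of 10 were higher and 7 lower (median -0.057), again with 1 lower past the block. Sox4, a progenitor transcription factor, was at 409 and 524 against 293 and 355 CPM (-0.45 ± 0.17, edgeR adjusted p = 0.82, 0.019 with the block).

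Cell cycle lists were near 0 with EIPA. The 21 S-phase genes had a median of 0.05 in all cells and 0.13 in the secretory-poor cells, where 19 of 21 were higher and none passed edgeR's test or the block. The 18 G2 and mitosis genes outside the rule had a median of -0.02. Cdkn1a, the CDK inhibitor p21, was at 69.3 and 44.5 against 109 and 75.9 CPM (0.77 ± 0.24, edgeR adjusted p = 0.65, 0.0052 with the block). The D cyclin and CDK list as a whole had a median of 0.02. Genes of the NRF2 antioxidant response (all 11 tested higher, median 0.32), of the ATF4 response (13 of 16 higher, 0.33) and of glycolysis (13 of 15 higher, 0.20) leaned upward, with 1, 3 and 0 genes past the block and none past edgeR's test. Of all genes tested, 1.43% were higher past the block. Secretory-poor cells had 8 glycolytic genes past the block (median 0.30). There the NRF2 and ATF4 lists had medians of 0.38 and 0.38, with 3 and 5 genes past the block. Among all genes tested in those cells, 2.38% were higher past it. The cholesterol synthesis list had a median of -0.15, and -0.11 in the secretory-poor cells.

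**Figure D4:**
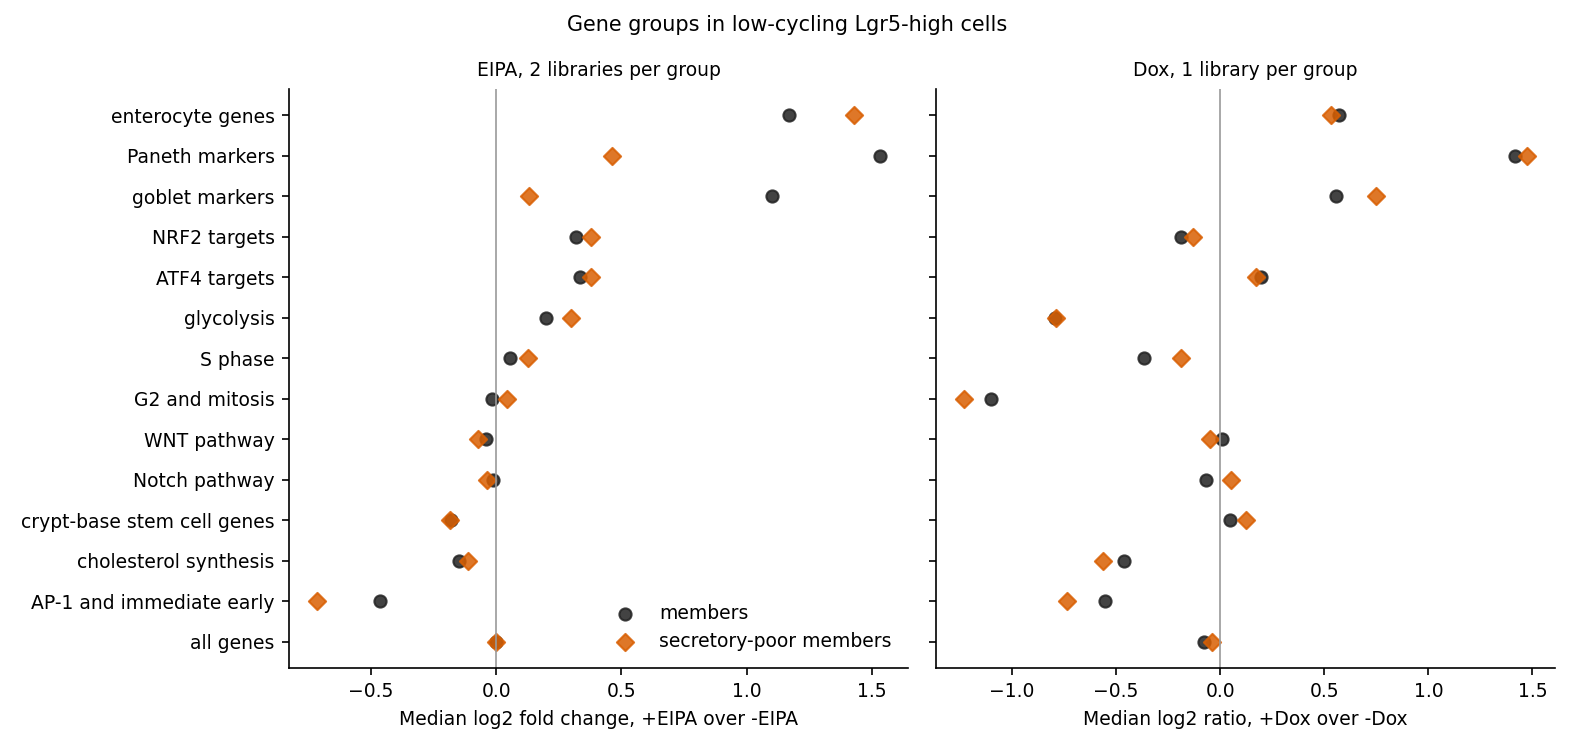
Median log2 change of 13 gene lists and of all genes (horizontal axis, left with EIPA over 2 libraries per group, right with Dox over 1 library per group) in all low-cycling Lgr5-high cells (black circles) and in the secretory-poor ones (orange diamonds). AP-1 genes lie to the left and enterocyte genes to the right in both panels, whereas glycolysis is to the right with EIPA and to the left with Dox. Paneth and goblet values of the diamonds are set in part by the choice of cells.

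Fos, Fosb, Cyp3a13 and Hbegf differed in the same direction by value in the other classes of cells, where none passed edgeR's test. With EIPA, Fos was at 298 and 366 against 105 and 128 CPM in cycling Lgr5-high cells, and at 346 and 441 against 143 and 163 CPM in low-cycling cells without Lgr5. Fosb was at 44.8 and 35.3 against 9.86 and 8.16 CPM in the latter. Cyp3a13 was at 14.2 and 14.0 against 41.8 and 34.8 CPM in cycling Lgr5-high cells, and Hbegf at 94.8 and 99.8 against 39.3 and 34.9 CPM. The difference between the EIPA effect in low-cycling Lgr5-high cells and in low-cycling cells without Lgr5 was tested in edgeR with the library as a block. Of 13619 genes 7 passed (0.0514%), 3 with a higher and 4 with a lower effect in the Lgr5-high cells, and 1379 had an unadjusted p under 0.05. None of the 7 was an AP-1, enterocyte-list or stem-list gene. The differences for Fos, Fosb, Cyp3a13 and Olfm4 were 0.18 ± 0.14, -0.18 ± 0.19, 0.37 ± 0.21 and -0.01 ± 0.24 on the log2 scale. For Smoc2 it was 0.55 ± 0.16 (edgeR adjusted p = 0.29), since Smoc2 was lower with EIPA by more in cells without Lgr5. When only secretory-poor cells of both classes were compared, 88 of 12766 genes passed, 25 with a higher and 63 with a lower effect in the Lgr5-high cells. Among them were Smoc2 (0.84, edgeR adjusted p = 0.031), Atf3 (-2.03, edgeR adjusted p = 0.00038) and Slc27a2 (-1.003, edgeR adjusted p = 0.031). The cell cycle genes Cdk4, Cenpa, Mcm5 and Mcm7 passed too (0.68, 1.18, 0.96 and 0.81, edgeR adjusted p = 0.031, 0.031, 0.034 and 0.047). So did Clu and Gstm1 (-0.98 and -0.80, edgeR adjusted p = 0.037 and 0.031). The low-cycling cells without Lgr5 were a mixed class. Enterocyte-marked cells made up 1782 of 3685 and 1210 of 4647 of them in -EIPA, and 2652 of 4634 and 2629 of 4846 in +EIPA. The part of this shift in the differences between classes was not tested.

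Among 7493 genes with a mean of at least 10 CPM and 100 UMIs over both CRISPR libraries, 46 were over 2-fold higher with Dox (0.614%) and 46 over 2-fold lower (0.614%). By any amount, 2663 of the 7493 were higher and 4830 lower. In the secretory-poor cells 38 of 7439 were over 2-fold higher (0.511%) and 37 over 2-fold lower (0.497%). With TMM in place of library size the split was 53 higher and 34 lower. Folds carry 95% counting intervals that cover counting error only.

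AP-1 and immediate early genes were lower here too. All 15 at level had a lower value in +Dox (median log2 ratio -0.55, against -0.08 over all genes), 5 of them by over 2-fold, and all 14 at level in the secretory-poor cells were lower (median -0.73). Fosb was at 46.3 CPM in -Dox and 12.8 in +Dox, a fold of 0.275 (0.221 to 0.341). Atf3 was at 50.3 and 13.6 CPM, a fold of 0.270 (0.219 to 0.332), and Fos had a fold of 0.393 (0.371 to 0.418).

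Enterocyte genes were higher in 20 of 22 (median log2 ratio 0.57, 8 by over 2-fold). Apoa1 had a fold of 4.62 (4.21 to 5.08), and the apolipoproteins Apoc2 and Apoc3 had folds of 4.56 (3.48 to 6.07) and 4.04 (3.42 to 4.80). Cyp3a11, of the same P450 family as Cyp3a13, had 3.42 (2.59 to 4.59). Apoa1 after thinning had a UMI in 16.5% and 41.6% of secretory-poor cells, and in 19.1% and 49.0% of secretory-rich cells, so the secretory-poor share lay below the secretory-rich share in both libraries.

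The Paneth genes Mmp7 (fold 3.55) and Ang4 (fold 3.28), and Prxl2a (3.31) and Ramp1 (3.43), were among the 10 largest ratios. The Paneth list had a median log2 ratio of 1.42 in all cells and 1.47 in the secretory-poor cells. Lyz1 in secretory-poor cells was at 134 CPM in -Dox and 354 in +Dox, and after thinning 45.9% and 80.1% of them had a UMI of it, beside 44.7% and 81.3% of enterocyte-marked cells. The secretory-poor cells were chosen on the Paneth genes, and the part of free RNA was not tested.

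The largest 2 ratios rested on few cells. Clu, a chaperone known from regenerating crypts, had 1 UMI in -Dox (0.158 CPM) and 25.6 CPM in +Dox, a ratio of 162 with a counting interval of 28.9 to 6444. Of the +Dox UMIs 89.9% were in 10 cells, and the secretory-poor cells were at 0 and 2.55 CPM. In the WT libraries Clu was at 4.50, 61.1, 11.5 and 81.0 CPM, lower in experiment 1 than in experiment 2 with or without EIPA, and higher with EIPA within both experiments (log2 fold change 0.56 ± 1.00, edgeR adjusted p = 0.99, 0.063 with the block). Chgb, an enteroendocrine granin, was at 12.8 and 113 CPM with 94.6% of its +Dox UMIs in 10 cells.

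Lower with Dox by the most were Rbp7, a retinoid-binding protein (20.6 and 1.66 CPM, fold 0.0804, 0.0446 to 0.135), Ghrl, the hormone ghrelin (56.3 and 4.77 CPM), the defensin gene Defa21, the chymotrypsinogen gene Ctrb1 (34.5 and 6.22 CPM) and Dmbt1, a secreted scavenger protein (58.6 and 12.3 CPM). In -Dox all of the Ghrl UMIs were in 3 cells, and Ghrl was higher with Dox in the secretory-poor cells (0.374 and 6.70 CPM) and with cells chosen after thinning (log2 ratio 1.99). Rbp7 and Dmbt1 had the same direction in the secretory-poor cells, with folds of 0.0986 and 0.226. Ccnb1ip1 and Ak4, a mitochondrial adenylate kinase, also had ratios among the lowest.

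Glycolytic genes were lower with Dox. All 13 glycolysis genes at level were lower (median log2 ratio -0.79 in all cells and in the secretory-poor cells), such as Eno1, enolase (fold 0.450, 0.417 to 0.486), Pkm, pyruvate kinase (0.577) and Ldha, lactate dehydrogenase (0.594). Egln3, an oxygen-sensing prolyl hydroxylase, and Bnip3, a mitophagy receptor, both known hypoxia-induced genes, were at 38.0 and 13.3 CPM and at 90.5 and 31.6 CPM. With EIPA, Eno1 was at 278 and 145 against 301 and 191 CPM, so glycolytic genes did not follow the same direction in the WT libraries. The 2 -EIPA libraries thus also differed in Eno1 between experiments. The counting interval of the Dox fold does not cover such a spread between libraries. All 19 cholesterol synthesis genes were lower with Dox (median -0.46), among them Hmgcs1 (fold 0.749) and Fdps (fold 0.736). The 20 S-phase genes at level were all lower (median -0.37, and -0.19 in secretory-poor cells, where 2 were higher), with Rrm2, ribonucleotide reductase, at 26.0 and 11.5 CPM. The 5 G2 and mitosis genes at level were all lower too (median -1.10), 3 of them past 2-fold, with Cenpa, the centromeric histone, at 26.6 and 12.4 CPM. The rule allows 1 UMI of the 4 cycle genes at any depth, and the +Dox cells were deeper (median 13362 against 9759.5 UMIs). With cells chosen after thinning the log2 ratios were -1.13 for Rrm2 (-1.18 without) and -0.76 for Cenpa (-1.10 without). Id1, a BMP target, was at 27.0 and 9.75 CPM.

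Stem cell genes had small ratios with Dox. Of the 21 genes at level 11 were higher and 10 lower, with a median log2 ratio of 0.05. Of all 7493 genes at level 2663 were higher. In the secretory-poor cells 16 were higher and 5 lower (median 0.12), where 3157 of all 7439 genes at level were higher. None of the 21 passed 2-fold in either direction, which only 0.614% of all genes did in each. Olfm4 had a fold of 0.981 (0.968 to 0.995), Smoc2 0.979 (0.915 to 1.05) and Clca3b 0.969 (0.932 to 1.01), while Gkn3 had 1.41 (1.22 to 1.64) and Cdk6, a G1 kinase listed with the stem cell genes, 1.31 (1.22 to 1.40). At the greater depth of +Dox the same Lgr5 count stood for less Lgr5. Low-cycling cells with 2 Lgr5 UMIs had 197 CPM of Lgr5 in -Dox and 138 in +Dox. The part of this in the ratios of stem cell genes was not tested. The WNT list had a median of 0.01.

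**Figure D5:**
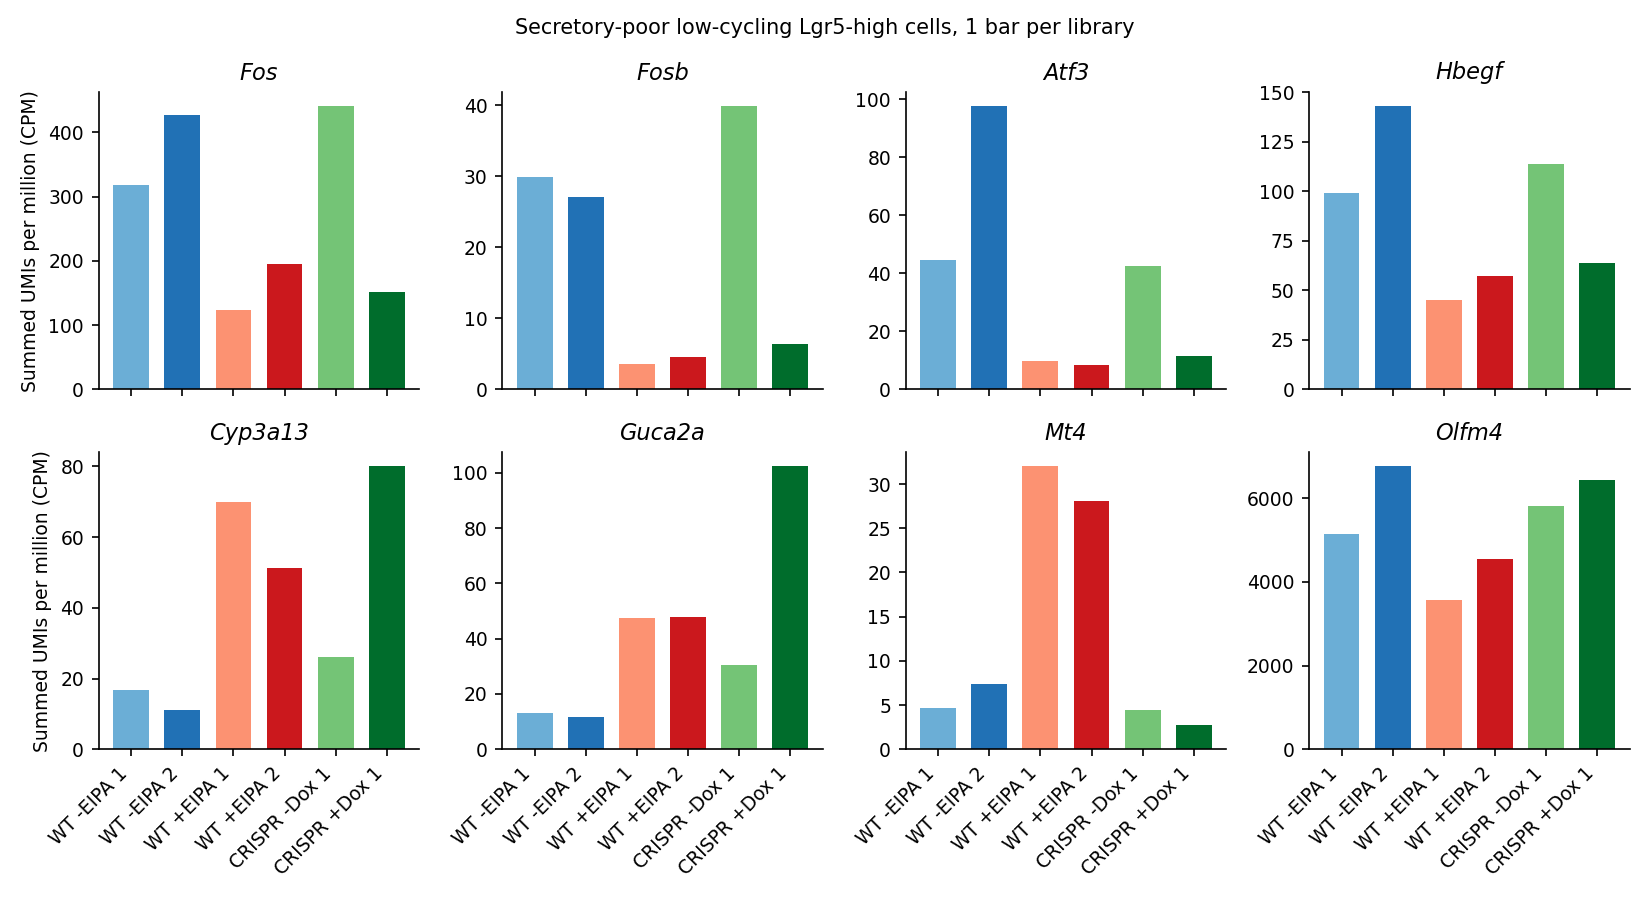
Level of 8 genes in secretory-poor low-cycling Lgr5-high cells (vertical axes, CPM, each starting at 0), with 1 bar per library. Fos, Fosb, Atf3 and Hbegf are lower and Cyp3a13 and Guca2a higher in both +EIPA libraries and in +Dox than in the controls, while Mt4 is higher with EIPA alone and Olfm4 lower with EIPA alone.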

How the data were processed

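Droplet 3′ single-cell RNA libraries of organoids at day 3 were measured, 2 per WT group and 1 per CRISPR group. The deposited matrices hold UMI counts per gene and cell that the authors made with Cell Ranger 6.1.2 on mm10 (GRCm38), per the submitters' processing notes. Introns in counting are not given in the sources used here. Groups came from the sample labels. Cells were kept with at least 1000 genes and under 20% mt- UMIs, and the members, gene lists and alternatives were chosen with earlier results of these data known. The limit of 1% secretory UMIs and every fit on secretory-poor or secretory-rich cells were chosen after seeing the data.

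For each library, the counts of all cells of a kind were added up and tested with edgeR 4.0.16 (TMM, filterByExpr, quasi-likelihood test, R 4.3.3), with Benjamini-Hochberg adjustment and a threshold of 0.05. DESeq2 1.42.0 was an alternative. The values after ± (SE) are the absolute log2 fold change divided by the square root of edgeR's F statistic. That statistic also draws on the spread shared across genes, so they are not the spread between libraries alone. Per the study's methods the WT libraries of a group came from 2 separate preparations. The study's source data give libraries of the same number as 1 experiment, and the pairing rests on this. Deviations from the group means correlated at 0.406 between same-numbered libraries over 10842 genes. With 2 libraries per group that is a single value and cannot establish the pairing. The main edgeR test did not use the pairing, and the fit with the experiment as a block did. Shares were compared with an exact permutation test, and binomial and Poisson intervals are at 95%. Thinning drew 5000 UMIs per cell and left out shallower cells. Enterocyte-marked cells had at least 5 UMIs of 3 enterocyte markers.

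Genes named for EIPA were those past the threshold with a mean of at least 10 CPM, filled up to 10 per direction by unadjusted p. For Dox they were the 10 largest ratios per direction among genes with at least 100 UMIs and 10 CPM. Other genes come from 25 fixed lists. Scrublet in scanpy 1.11.5 marked 0.0476% and 0% of cells in the experiment 1 libraries by its own threshold, which has not worked there, so doublets were kept and the 10% of cells with the highest scores were left out as an alternative chosen after seeing the data. In simulated data edgeR recovered 78.5% of 2-fold and 100% of 4-fold changes for EIPA, and for the difference between classes 23% and 98%. False calls numbered 9 and 16 for EIPA, and 0 and 13 for the difference. The 200 changed genes were drawn only from genes above a minimum count. All genes had the same dispersion (0.0203), and no difference between experiments was simulated. Recovery over all genes tested was thus not measured. Aldoa, Ddit3 and Pla2g2a were not analysed here, and the gene targeted in the CRISPR line is not reported here.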

Additional observations from a re-analysis of the deposited data

Results flagged for a closer look

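For 7 genes the EIPA effect in low-cycling Lgr5-high cells differed from that in low-cycling cells without Lgr5, by edgeR's test of the difference itself with the library as a block. It was higher in the Lgr5-high cells for the pentraxin gene Mptx1 (log2 difference 2.83) and the alpha-defensin genes Defa23 (1.21) and Defa27 (3.11), which are expressed in Paneth cells. It was lower for Krt23, a keratin (-0.99), Pnliprp2, a pancreatic lipase-related protein (-1.12), Gm5485 (-1.55) and 2210407C18Rik (-1.10). With secretory-poor cells of both classes, Krt23, Pnliprp2, Gm5485 and 2210407C18Rik still passed (edgeR adjusted p = 0.0066, 0.00060, 0.00011 and 0.0066), and Mptx1, Defa23 and Defa27 did not (edgeR adjusted p = 0.39, 0.96 and 0.70). There the difference turned to -5.91 for Mptx1 and -0.20 for Defa23 and was 3.72 for Defa27. These values rest on few counts in the secretory-poor Lgr5-high cells, with 3, 9, 0 and 0 UMIs of Mptx1 in -EIPA 1 and 2 and +EIPA 1 and 2, 2, 3, 3 and 4 of Defa23, and 0, 0, 5 and 0 of Defa27. Alpha-defensins share reads, so single members are uncertain. Within each experiment, more of the cells without Lgr5 were enterocyte-marked in +EIPA. The part of this in the differences was not tested.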

How the results depend on the processing

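The count of 5 genes called with EIPA was 10 with library size scaling, 269 with no filter on low counts, 189 with the replicate block, 48 with DESeq2, 11 with an Lgr5 limit of 3 UMIs 3 with strict limits on cells and 4 without the 10% of cells with the highest doublet scores. It was 0 with no cycle UMIs allowed, with cells chosen after thinning, without cells holding other lineages' UMIs and with Olfm4-positive cells only, where edgeR gave 580, 487, 335 and 586 genes at an unadjusted p under 0.05. DESeq2 was not run on those sets. Leaving out each library gave 6 to 190 genes (190 without -EIPA 1, 97 without -EIPA 2, 28 without +EIPA 1), the lone library being assumed to vary like the other group. In secretory-poor cells it was 8 with library size, 340 with the replicate block, 25 with DESeq2 and 11 to 76 without each library (76 without -EIPA 1, 11 without -EIPA 2, 17 without +EIPA 1, 18 without +EIPA 2), and in secretory-rich cells 1. The 7 differences between classes were 5 with library size scaling (3 higher and 2 lower), 308 with no filter, 88 in secretory-poor cells, 27 with an Lgr5 limit of 3 UMIs, 12 with DESeq2, and 10 to 1023 without each library (1023 without -EIPA 1, 57 without +EIPA 1, 41 without +EIPA 2). Genes over 2-fold lower with Dox numbered 29 with an Lgr5 limit of 3 UMIs. The cause of these shifts was not tested.

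The share ratio of 0.822 was 0.677 in secretory-poor cells and 0.738 to 0.922 with thinning, other Lgr5 and cycle limits or strict limits on cells, 0.824 with the replicate block and 0.711 to 0.972 without each library. It was 1.38 for secretory-rich cells alone, and with an Lgr5 limit of 1 UMI it was 1.00 within experiment 1. Log2 fold changes with EIPA turned in the secretory-poor cells for Habp2 (-0.080, -0.14 with library size, -0.020 with the replicate block, -0.58 without -EIPA 1, -0.78 without +EIPA 2), Samd5 (-0.041 with library size, -0.46 and -0.21 without the same libraries), Lyz1 (-0.11 and -0.51), Defa24 (-0.41 without +EIPA 2), Gkn3 (0.053 without -EIPA 2) and Clca3b (0.032 without +EIPA 1). The Dox log2 ratio of Ghrl was 1.99 with cells chosen after thinning and 4.16 in secretory-poor cells. Of 876 alternative values for 34 genes with EIPA, 623 kept direction and side of the threshold, 190 passed it, 50 no longer passed and 13 turned. Of 162 for 41 genes with Dox, 91 moved by less than their counting error, 69 by more and 2 turned.

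Depth per low-cycling Lgr5-high cell differed between libraries, most for +Dox. With 2 libraries per WT group, edgeR recovered 78.5% of simulated 2-fold changes with EIPA, in genes above a minimum count that all had the same dispersion. With 1 library per CRISPR group, no Dox value has a replicate error.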
